A study of Mus musculus with 2 samples.

Results

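Aquaporins are membrane channel proteins that let water pass, and the members described here are the 7 mouse genes Aqp1, Aqp3, Aqp4, Aqp5, Aqp7, Aqp8 and Aqp11. They were picked by their symbols after their levels in these data were known, among 17333 genes listed with at least 1 read in either library. The levels and ratios of the members are therefore a description, and no test is attached to them. Of the 7 members, 5 were listed, and Aqp4 and Aqp8 had no read in either library.

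The study sequenced total RNA of cells freshly sorted from mammary glands of virgin adult mice, 8 weeks old. The labels describe 2 libraries, 1 of Procr-expressing cells (called Procr+) and 1 labelled as lacking Procr (called Procr-), and both came from 1 gate that was Lin-, CD105+, CD31+ and Sca1+. Procr is the endothelial protein C receptor. Its transcript had 18317 reads (1321 RPKM, reads per kb of gene length scaled to the library total) in the Procr+ library and 2120 reads (147 RPKM) in the Procr- library, a ratio of 8.96-fold [8.57 to 9.38]. The library labelled as lacking Procr thus held many Procr reads, and the names Procr+ and Procr- stand for the labels only. Neither the strain nor any pooling of animals is given in the sources used here. With 1 library per group there is no replicate check on any difference, and p-values are not given. Brackets after a level, a share or a fold give its exact 95% interval, which covers counting error only.

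Water crosses a membrane along the osmotic gradient, and an open aquaporin raises the rate at which it does so without setting the direction. AQP1 is the classical water channel of continuous endothelium and of red cells, and AQP5 is known from the apical membrane of secretory gland epithelia. AQP3 and AQP7 also pass glycerol and belong to the aquaglyceroporins, with AQP3 typical of the basolateral membrane of epithelia and AQP7 of adipocytes and capillaries. AQP4 is the water channel of astrocyte endfeet, AQP8 is known from pancreas, colon and testis, and AQP11 is an intracellular channel of divergent sequence.

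The Procr+ library held 9.22 M unique reads on genes and the Procr- library 9.57 M. Endothelial markers were present in both, with Pecam1 (CD31) at 712 RPKM in the Procr+ and 52.7 RPKM in the Procr- library. Luminal epithelial markers went against the endothelial label of the Procr- library, where Krt8, a keratin of simple epithelia, reached 5941 RPKM, against 262 RPKM in the Procr+ library. Over the whole lists, 20 of 20 pan-endothelial genes passed 2-fold upwards in the Procr+ library and 21 of 22 luminal genes downwards. Of all genes that reached 1 RPKM in either library, 13.1% passed 2-fold upwards and 23.7% downwards. Fibroblast genes were also lower, with 7 of 8 past 2-fold and a sum of 174 RPKM in the Procr+ and 733 RPKM in the Procr- library. Of 4 Schwann and glia genes, 2 were lower and 1 higher. Every aquaporin value below stands beside this difference in makeup, whose part in it was not tested. In bulk RNA, fewer cells of a type and less RNA per cell cannot be told apart.

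Aqp1 was among the most abundant transcripts of the Procr+ library. It had 68552 reads there, the 4th highest count of any gene, against 2148 reads and rank 837 in the Procr- library. Per length its level was 2694 RPKM [2674 to 2714] in the Procr+ library, rank 8 of 16247 listed genes, and 81.4 RPKM [78.0 to 84.9] in the Procr- library. The ratio was 33.1-fold [31.7 to 34.6]. Reads covered 99.7% of the deposited gene length of Aqp1 in the Procr+ library and 93.1% in the Procr- library, so the gene was read along nearly its whole length in both. Only 4 of the 12509 genes that reached 1 RPKM in at least 1 library had a higher log2 ratio of RPKM + 1 than Aqp1, whose value was 5.03.

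Aqp3 and Aqp5 had the opposite distribution. Aqp3 had 44 reads and 2.71 RPKM [1.97 to 3.63] in the Procr+ library, against 1691 reads and 100.3 RPKM [95.6 to 105.2] in the Procr- library. It was 37.0-fold higher [27.5 to 51.2] in the Procr- library. Aqp5 had 68 reads and 4.76 RPKM [3.69 to 6.03] in the Procr+ library, against 1126 reads and 75.9 RPKM [71.5 to 80.5] in the Procr- library. Its difference was smaller, at 16.0-fold [12.5 to 20.7] higher in the Procr- library. Both transcripts were thus detected in both libraries, with 68.9% of the Aqp3 length and 79.8% of the Aqp5 length covered even in the Procr+ library.

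Aqp7 and Aqp11 were close to the lower limit of the data. Aqp7 had 35 reads (1.50 RPKM) in the Procr+ library and 14 reads (0.580 RPKM) in the Procr- library, a ratio of 2.59-fold [1.36 to 5.22]. Aqp11 had 14 reads (1.15 RPKM) in the Procr+ library and 2 reads (0.158 RPKM) in the Procr- library, a ratio of 7.26-fold [1.67 to 65.8]. The counting intervals of both lay above 1, but on the log2(RPKM + 1) scale, which understates differences of low genes, Aqp7 was at 0.66 and Aqp11 at 0.89, under the 2-fold threshold of 1. Aqp4 and Aqp8 were not listed, and 3 reads, close to the upper limit that a count of 0 allows, would be 0.325 RPM (reads scaled to the library total) in the Procr+ and 0.314 RPM in the Procr- library.

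**Figure D1:**
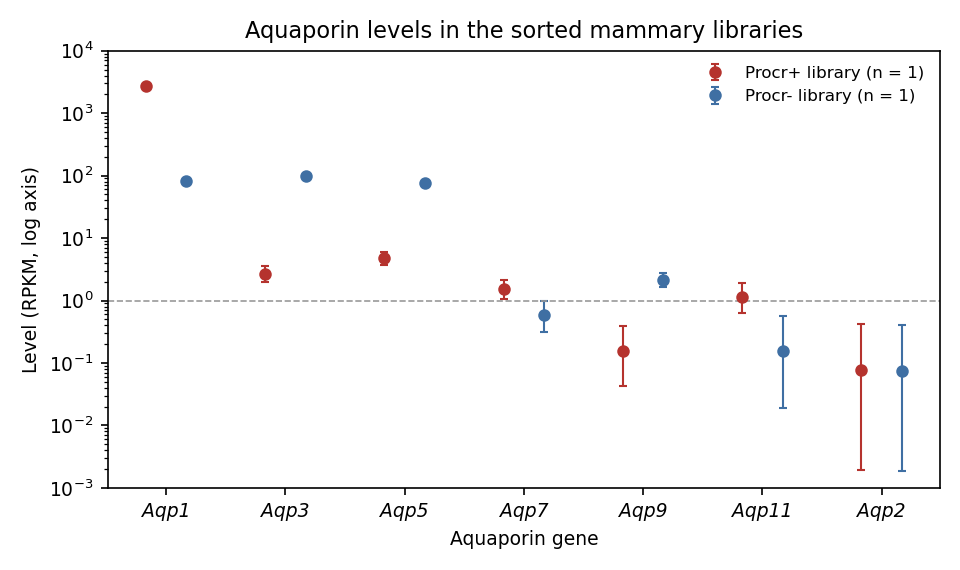
Level of each listed aquaporin gene in RPKM on a log axis in the Procr+ and the Procr- library (1 library each); bars are exact Poisson 95% intervals and the dashed line marks the filter of 1 RPKM. Aqp1 stands at 2694 RPKM in the Procr+ library, while Aqp3, Aqp1 and Aqp5 lie between 75.9 and 100.3 RPKM in the Procr- library.

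On the log2(RPKM + 1) scale, 1 of the 5 members that passed the filter was at least 2-fold higher in the Procr+ library, and this was Aqp1. Over all 12509 genes tested, 13.1% were called higher. Of the same 5 members, 2, Aqp3 and Aqp5, were at least 2-fold lower, beside 23.7% of all genes. Since the members were chosen with these values in view, nothing is read from these counts. The median log2 ratio of the 5 members, 0.66, was the value of Aqp7, and that of all genes was −0.38. Aqp7 and Aqp11 reached the filter of 1 RPKM only in the Procr+ library, where they were higher. Nothing is therefore read from the member median either. The counts of higher members depended on Aqp7 and Aqp11. With a pseudocount of 0.1 in place of 1, 3 members were at least 2-fold higher, beside 16% of all genes.

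**Figure D2:**
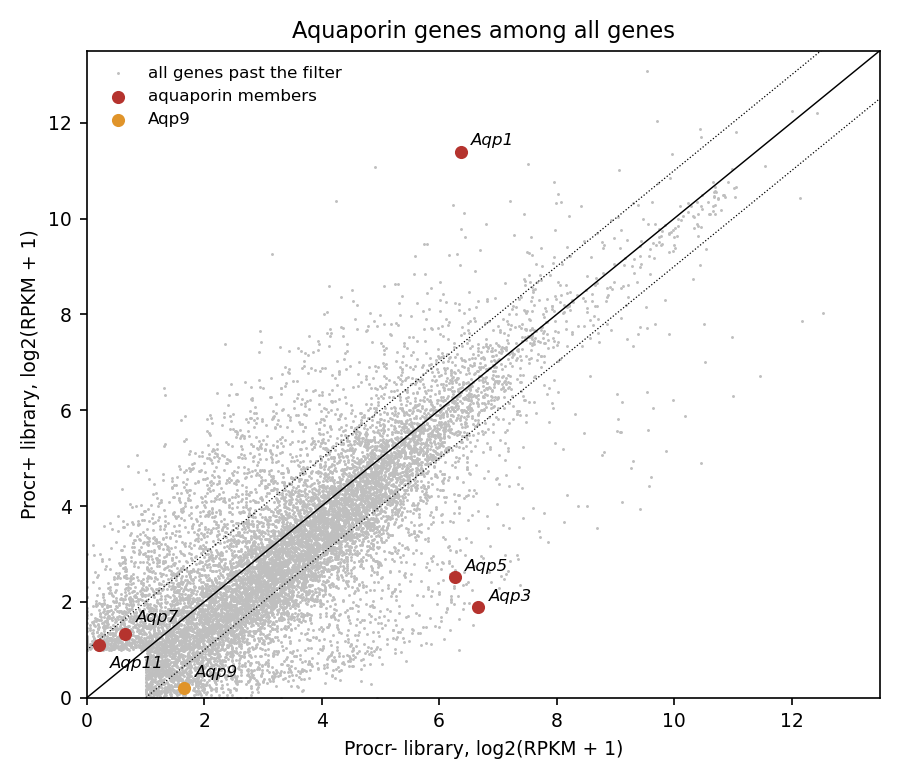
Each point is a gene past the filter (12509 genes), with its log2(RPKM + 1) in the Procr- library on the x axis and in the Procr+ library on the y axis; the solid line is equality and the dotted lines are 2-fold. Aqp1 lies far above the upper dotted line, Aqp3 and Aqp5 far below the lower one, and Aqp7 and Aqp11 in the low corner between them; Aqp9, no member, is drawn in orange.

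The libraries differed in how the aquaporin signal was made up. All aquaporin genes together had 68718 reads, or 0.745% of all reads, in the Procr+ library, and 5040 reads, or 0.0527%, in the Procr- library. Aqp1 made up 99.8% of aquaporin reads [99.7 to 99.8] in the Procr+ library and 42.6% [41.2 to 44.0] in the Procr- library. Aqp3 contributed 0.0640% [0.0465 to 0.0859] in the Procr+ library and 33.6% [32.2 to 34.9] in the Procr- library, and Aqp5 contributed 0.0990% [0.0769 to 0.125] in the Procr+ library and 22.3% [21.2 to 23.5] in the Procr- library. In RPKM, which takes gene length into account, Aqp1 was 361-fold above the sum of Aqp3 and Aqp5 in the Procr+ library. In the Procr- library the sum of Aqp3 and Aqp5, 176 RPKM, was 2.17-fold above Aqp1.

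**Figure D3:**
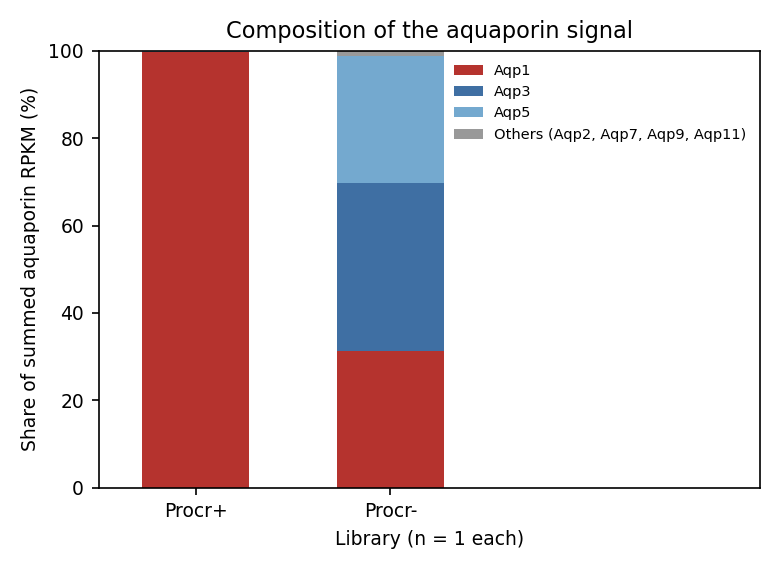
Share of each gene in the summed RPKM of all aquaporin genes, in percent, for the Procr+ and the Procr- library (1 library each). Aqp1 fills 99.6% of the Procr+ bar, and Aqp3, Aqp1 and Aqp5 take 38.5%, 31.2% and 29.1% of the Procr- bar.

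The order of levels was not the same in the libraries. In the Procr+ library the order was Aqp1, Aqp5, Aqp3, Aqp7 and Aqp11. The intervals of Aqp7 and Aqp11 overlapped there, as did those of Aqp3 and Aqp7, whereas Aqp5 lay above Aqp3. In the Procr- library the order was Aqp3, Aqp1, Aqp5, Aqp7 and Aqp11, and the intervals of Aqp1 and Aqp5 overlapped, as did those of Aqp7 and Aqp11. The RPKM ratio of Aqp3 to Aqp5 was 0.569 [0.380 to 0.844] in the Procr+ library and 1.32 [1.22 to 1.43] in the Procr- library. Aqp5 was thus the higher of the pair in the Procr+ library and Aqp3 in the Procr- library.

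Marker genes of cell types gave a scale for these ratios. The log2 ratio of Aqp1 lay 1.74 above the median of the pan-endothelial list (3.29) and above each of its 20 genes, 13 arterial, 15 capillary and 13 mural genes. In the venous list, 4 of 11 genes had higher ratios than Aqp1, namely Selp, Sele, Darc and Hdc. These are the same 4 genes that lay above Aqp1 among all genes. The summed level of the pan-endothelial list was 4916 RPKM in the Procr+ library and 463 RPKM in the Procr- library, or 10.6-fold. Per 100 RPKM of that list, Aqp1 had 54.8 RPKM in the Procr+ library and 17.6 RPKM in the Procr- library, a ratio of 3.12 [2.99 to 3.26, with the list sum taken as fixed]. This ratio depended on the list. It was 1.48 [1.42 to 1.54] with the venous, 3.91 [3.74 to 4.08] with the capillary and 4.58 [4.39 to 4.78] with the arterial list. In the Procr+ library Fabp4 alone held 8691 of the 10206.5 RPKM of the capillary list. Selp (2151 RPKM), Darc (1311 RPKM) and Sele (616 RPKM) held most of the 5775 RPKM of the venous list there. The capillary and venous sums of that library therefore rest largely on these genes. Mural genes also moved with Aqp1: 13 of 13 were at least 2-fold higher, beside 13.1% of all genes. Their sum was 1667 RPKM in the Procr+ and 202 RPKM in the Procr- library. The part of mural genes in the Aqp1 difference was not tested.

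Red cells also carry AQP1 protein. On the log2(RPKM + 1) scale, none of the 4 red cell genes that passed the filter differed by 2-fold. Among all genes, 13.1% were higher on this scale and 23.7% lower. By reads, Alas2, an enzyme gene of haem synthesis in red cell precursors, was 2.72-fold higher [1.33 to 5.99] in the Procr- library. It had 11 reads in the Procr+ and 31 in the Procr- library. The same ratio, Procr- over Procr+, was 1.24 [0.910 to 1.68] for Beta-s and 1.36 [0.908 to 2.05] for Hba-a1. For Hbb-b1 it was 1.07 [0.391 to 2.98]. The intervals of Beta-s, Hba-a1 and Hbb-b1 include 1. The list summed to 24.7 RPKM in the Procr+ library and 31.4 RPKM in the Procr- library. The red cell gene Rhag had 0 reads in both libraries. The part of red cell RNA in the Aqp1 difference was not tested.

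Aqp3 and Aqp5 lay within the range of the luminal epithelial list, whose median log2 ratio was −4.31. Of its 22 genes, 2 had lower ratios than Aqp3 (log2 −4.77) and 15 had lower ratios than Aqp5 (log2 −3.74). The luminal list summed to 910 RPKM in the Procr+ library and 20540 RPKM in the Procr- library, or 22.6-fold higher in the Procr- library. Per 100 RPKM of that list, Aqp3 had 0.297 RPKM in the Procr+ and 0.488 RPKM in the Procr- library, a ratio of 0.609 [0.441 to 0.821, list sum taken as fixed]. Aqp5 went the other way against this sum, with 0.522 RPKM in the Procr+ and 0.370 RPKM in the Procr- library, a ratio of 1.41 [1.09 to 1.81]. Most of the sum in the Procr- library came from Krt8 (5941 RPKM), Krt18 (4648 RPKM), Cldn4 (2817 RPKM) and Krt19 (2061 RPKM). Both ratios therefore rest largely on these genes. Against single genes the direction for Aqp5 varied, as 15 of the 22 had lower log2 ratios and the others higher ones. The basal epithelial list, which shares Acta2 and Mylk with contractile cells, had a median of −0.50. Of its 8 genes past the filter, 2 were higher and 2 lower, beside 13.1% and 23.7% of all genes.

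Adipocyte genes, given beside Aqp7, were mostly at low levels. Of 8 that passed the filter, 3 passed 2-fold upwards in the Procr+ library and 1 downwards, with a median log2 ratio of 0.41. Among all genes, 13.1% passed upwards and 23.7% downwards. The list summed to 103 RPKM in the Procr+ and 77.0 RPKM in the Procr- library, most of it from the lipase gene Pnpla2. The higher genes were Plin1 (7.68-fold [3.01 to 25.0]), Plin4 (6.26-fold [4.12 to 9.89]) and Slc2a4 (4.82-fold [3.25 to 7.35]). The lower gene, Cidea, was 10.7-fold higher [5.61 to 22.9] in the Procr- library. Adipoq, the adipocyte hormone adiponectin, had 11 reads (0.968 RPKM) in the Procr+ and 23 reads (1.95 RPKM) in the Procr- library. Its ratio, Procr+ over Procr-, was 0.496 [0.218 to 1.06], an interval that includes 1. Whether adipocyte RNA contributed to the Aqp7 reads was not tested.

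**Figure D4:**
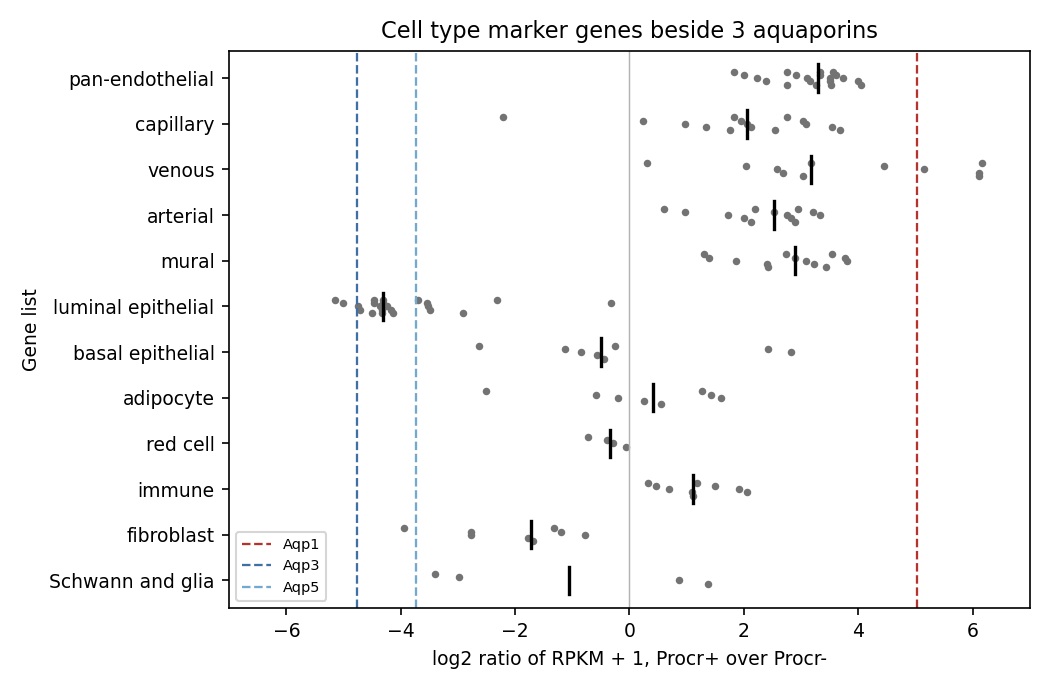
Each point is a marker gene past the filter, placed by its log2 ratio of RPKM + 1 (Procr+ over Procr-); black bars are list medians and dashed lines are Aqp1, Aqp3 and Aqp5. Aqp1 (5.03) lies to the right of every pan-endothelial gene, and Aqp3 (−4.77) and Aqp5 (−3.74) lie among the luminal epithelial genes.

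The genes most like each abundant member were those nearest to it in log2(RPKM + 1) over the 2 libraries. Nearest to Aqp1 were Plvap, which encodes the protein of endothelial diaphragms (1248 RPKM in the Procr+ and 74.2 RPKM in the Procr- library, distance 1.12), the cytokine gene Il6 (distance 1.17) and the metalloproteinase gene Adamts4 (distance 1.27). None was closer than 1 log2 unit, so Aqp1 had no near match. Nearest to Aqp3 were 1190003J15Rik and the keratin gene Krt6a, both within 0.0896. Krt6a has close paralogs, and its level is uncertain for that reason. Nearest to Aqp5 were Tuft1, Cadm4 and Fcgbp, all within 0.14. With only 2 libraries such a match rests on 2 values per gene.

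Aquaporin genes that lie side by side in the genome had unlike levels. Coordinates are RefSeq's on GRCm38.p6, which corresponds to mm10, and span the whole gene with exons, introns and UTRs. Aqp5 (chromosome 15, 99591028 to 99594829) lies between Aqp2, the water channel of the renal collecting duct, and Aqp6. The gaps to these neighbours are 6.48 kb and 3.64 kb. Aqp5 had 68 reads in the Procr+ and 1126 reads in the Procr- library, while Aqp2 had 1 read in each and Aqp6 none. Aqp3 (chromosome 4, 41092724 to 41098183) and Aqp7 (41033074 to 41048237) are adjacent protein-coding genes with a gap of 44.5 kb. Their read ratios pointed in opposite directions, with Aqp3 lower and Aqp7 higher in the Procr+ library.

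Aqp1 (chromosome 6, 55336299 to 55348555) lies between Mindy4 and Ghrhr. Mindy4 had 95 reads in the Procr+ and 82 reads in the Procr- library, a ratio of 1.20, and Ghrhr had none. The high Aqp1 count was therefore not shared by the coding genes on either side. No RefSeq gene overlapped Aqp1, Aqp3, Aqp7 or Aqp11, and the long non-coding gene Gm34765, which overlaps Aqp5, was not listed in either library. Aqp11 (chromosome 7, 97726379 to 97738247) has Pak1 on one side, with 139 reads in the Procr+ and 1216 in the Procr- library, and Clns1a on the other, with 146 reads in the Procr+ and 255 in the Procr- library.

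The 250 bases before the RefSeq start of Aqp1 and Aqp3 are shown because these genes had the largest ratios in opposite directions. They come from RefSeq on GRCm38.p6, chr6:55336049-55336298 on the plus strand and chr4:41098184-41098433 on the minus strand, written 5′ to 3′. Capitals mark GGAA, the core letters of ETS factor sites, on either strand, and TATAAA.
Aqp1: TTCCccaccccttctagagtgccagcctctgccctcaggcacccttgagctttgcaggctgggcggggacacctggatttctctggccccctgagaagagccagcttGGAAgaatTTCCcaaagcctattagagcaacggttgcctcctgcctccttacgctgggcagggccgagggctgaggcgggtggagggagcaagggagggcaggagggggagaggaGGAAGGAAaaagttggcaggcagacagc
Aqp3: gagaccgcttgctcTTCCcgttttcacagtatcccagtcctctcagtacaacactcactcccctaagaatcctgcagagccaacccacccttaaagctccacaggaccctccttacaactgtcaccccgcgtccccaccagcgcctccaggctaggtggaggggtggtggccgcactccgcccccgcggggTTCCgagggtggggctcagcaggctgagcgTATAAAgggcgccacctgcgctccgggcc

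GGAA occurred 5 times in the Aqp1 window and 2 times in the Aqp3 window, counting both strands, with neighbouring copies that do not overlap. These letters are common: 93.4% of 32851 RefSeq promoter windows of the same length held at least 1 copy. TATAAA occurred once in the Aqp3 window, 29 bases before the start, and not in the Aqp1 window, and 12.4% of windows held it on either strand. The GC box letters GGGCGG occurred once in each, as in 32.7% of all windows, which held at least 1 copy. The windows were 62.0% (Aqp1) and 64.0% (Aqp3) G or C. A match is a string of letters and not a measured site.

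Genes that work beside aquaporins were described from 5 lists. In the list of the AQP4 anchoring complex and channel partners, 3 of 9 genes past the filter passed 2-fold upwards in the Procr+ library. Only 1 passed downwards (median log2 ratio 0.34). The shares of all genes were 13.1% upwards and 23.7% downwards. Trpv4, a calcium channel opened by cell swelling, was 4.85-fold higher [3.92 to 6.05] at 16.2 RPKM in the Procr+ and 3.35 RPKM in the Procr- library. Sntb2, a syntrophin scaffold, was 2.77-fold higher [2.60 to 2.95], and Dmd, which encodes dystrophin, completed the higher genes. Dtnb, a dystrobrevin gene, was 4.53-fold higher [3.49 to 5.95] in the Procr- library. Kcnj10, the potassium channel that accompanies AQP4 in glia, had 5 reads in the Procr+ and 0 in the Procr- library.

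Ion transport genes of fluid secretion had 1 of 14 members higher and 3 lower (median −0.36), near the shares of all genes (13.1% higher and 23.7% lower). Centred on the all-gene median of −0.38, the list median was 0.02, with 3 higher and 3 lower. After centring, 19.4% of all genes were higher and 13.1% lower. The lower genes were Atp1b1, a subunit of the sodium pump (4.52 RPKM in the Procr+ and 65.8 RPKM in the Procr- library), Slc12a2, the sodium-potassium-chloride cotransporter NKCC1 (27.1 RPKM in the Procr+ and 163 RPKM in the Procr- library), and the calcium-activated potassium channel gene Kcnn4. Atp1b1 was 14.6-fold [12.0 to 17.9], Slc12a2 6.02-fold [5.71 to 6.35] and Kcnn4 5.06-fold higher in the Procr- library. The higher gene was Kcne3, with 30 reads in the Procr+ and 7 in the Procr- library.

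Among genes of the osmotic response, 1 of 7 was higher and none lower (median 0.62), beside 13.1% higher and 23.7% lower of all genes. The count of higher genes was thus near the share of all genes. Once the all-gene median was set to 0, 3 of 7 were higher, beside 19.4% of all genes. The gene higher without this shift was Slc5a3, the myo-inositol transporter, at 17.2 RPKM in the Procr+ and 4.76 RPKM in the Procr- library, 3.62-fold higher. Nfat5, the transcription factor of the hypertonic response, was at 45.7 RPKM in the Procr+ and 29.7 RPKM in the Procr- library.

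Of 10 genes of glycerol handling, the solute of AQP3 and AQP7, 5 passed 2-fold upwards in the Procr+ library and 2 downwards (median 0.83). The shares of all genes were 13.1% upwards and 23.7% downwards, so the count of lower genes was near the share. Mgll, the lipase that releases glycerol from monoacylglycerol, was 6.05-fold higher [5.47 to 6.72] at 69.5 RPKM in the Procr+ and 11.5 RPKM in the Procr- library. Gpihbp1, which holds lipoprotein lipase on capillary endothelium, was 3.52-fold higher [2.92 to 4.27]. Gpd1, glycerol-3-phosphate dehydrogenase, and Gyk, glycerol kinase, were 6.52-fold [4.53 to 9.64] and 4.42-fold [3.49 to 5.64] higher in the Procr- library.

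Carbonic anhydrases and bicarbonate transporters had 1 of 7 genes higher and 3 lower (median −0.79), or 2 higher and 2 lower after the same centring. The shares of all genes were 13.1% higher and 23.7% lower, or 19.4% and 13.1% after centring. Car4, the membrane-bound anhydrase of capillary endothelium, was 5.61-fold higher [3.70 to 8.80] at 12.0 RPKM in the Procr+ and 2.14 RPKM in the Procr- library. The cytosolic anhydrase gene Car2 was 8.11-fold [7.13 to 9.26] and the hypoxia-linked Car9 17.6-fold [8.31 to 44.7] higher in the Procr- library, and Car12 completed the lower genes. Nothing is read from the counts of this list, as the count of higher genes without centring was near the share of all genes. On the log2(RPKM + 1) scale, no gene of the 5 lists lay above Aqp1 or below Aqp5.

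**Figure D5:**
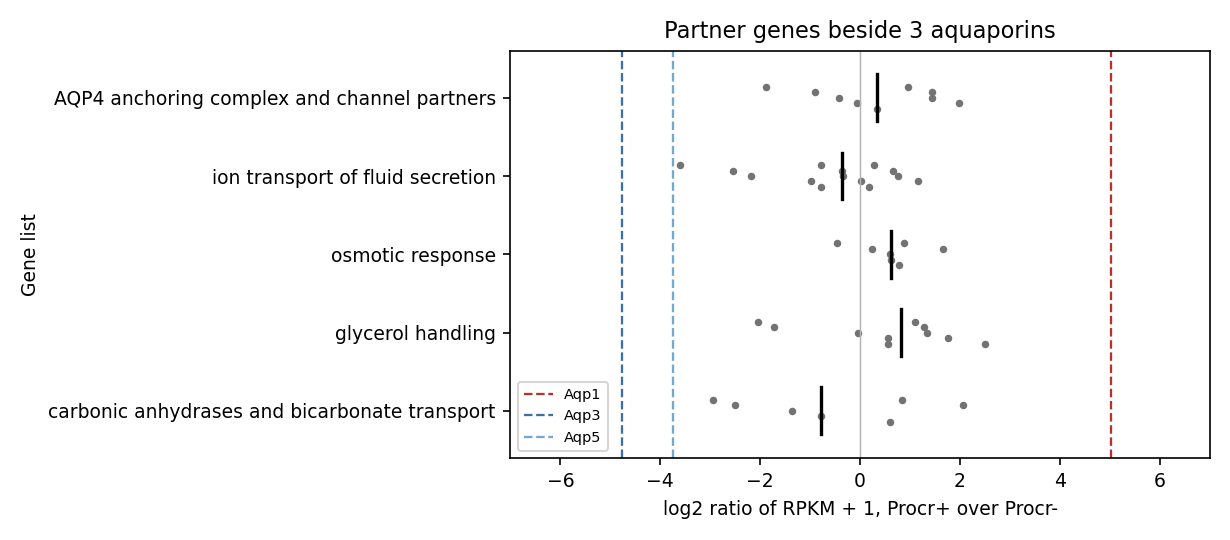
Each point is a partner gene past the filter, placed by its log2 ratio of RPKM + 1 (Procr+ over Procr-); black bars are list medians and dashed lines are Aqp1, Aqp3 and Aqp5. List medians lie between −0.79 and 0.83, and all points lie between the Aqp5 and Aqp1 lines.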

How the data were processed

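Single reads were sequenced on an Illumina HiSeq instrument from Trizol-extracted total RNA and, per the labels' protocols, placed uniquely on mm10; aligner, counter, annotation and strand setting were not given in the sources used here. The authors deposited whole-number counts of unique reads for each gene with at least 1 read. The deposited RPKM equalled the counts divided by listed length and library total. The authors also deposited a coverage in percent of gene length, whose exact definition is not given. Unique mapping lowers genes with near-identical copies.

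With 1 library per group no test was possible. Log2 ratios of RPKM + 1 (Procr+ over Procr-) were taken over genes that reached 1 RPKM in either library, and 2-fold was called. Single-gene folds compare RPM, reads scaled to library size, with exact conditional binomial (Clopper-Pearson) 95% intervals; shares have exact binomial and levels exact Poisson intervals. PCR copies are not independent molecules. Named genes were the members, the other mouse aquaporins, up to 3 genes per partner list by the largest absolute log2 ratio, the 3 nearest genes of each member with at least 50 reads, and marker anchors; Alas2, Dmd, Gyk, Kcne3, Car12, Nfat5, Kcnj10 and the genes named beside marker lists or by position were added after their values were seen. Some genes that this rule names are not reported here. Members and lists were chosen with earlier results of these data known. The calculations were tested on simulated data (Python 3.11.15, scipy 1.17.1). Of all gene identifiers, 99.7% matched RefSeq. Promoter windows were computed for 11 of 12 mouse aquaporins, and only those of Aqp1 and Aqp3 are described. Aqp4, on chromosome 18, was skipped. The alternatives tried were other pseudocounts, filters, scalings and units.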

Additional observations from a re-analysis of the deposited data

How the results depend on the processing

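Aqp1 was at least 2-fold higher, and Aqp3 and Aqp5 at least 2-fold lower, in the Procr+ library under every alternative run. Over these, the log2 ratio ranged from 5.03 to 5.41 for Aqp1, from −5.18 to −4.39 for Aqp3 and from −3.98 to −3.36 for Aqp5. With centring on the all-gene median (−0.38), the ratio of Aqp1 was 5.41 and that of Aqp5 −3.36, and with upper-quartile scaling that of Aqp1 was 5.36. Higher genes made up 35.7% of all 2-fold calls on the deposited scale, 59.6% after centring and 51.5% with upper-quartile scaling. The number of members at least 2-fold higher was 1 on the main scale, beside 13.1% of all genes. It was 3 with a pseudocount of 0.1 (16% of all genes) and 3 when centred (19.4%). As RPM with a prior of 1 read it was also 3 (16.2%). It was 2 with a pseudocount of 0.5 (14.7%), 2 with upper-quartile scaling (17.1%) and 2 as TPM (15.3%). Aqp7 and Aqp11 account for this: Aqp7 ranged from 0.66 to 1.32 and Aqp11 from 0.89 to 2.37 on the log2 scale. Neither passed a filter of 5 RPKM, so that setting gave no value for them. Requiring the counting interval to lie beyond 2-fold gave 1 member higher and 2 lower. No alternative reversed a direction. Depth limited Aqp11, with 2 reads in the Procr- library, most. No paired analysis was possible because each group has 1 library.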

Other observations

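Among the 5 mouse aquaporin genes outside the members, Aqp9, an aquaglyceroporin known from liver and from myeloid cells, had 4 reads (0.155 RPKM) in the Procr+ and 58 reads (2.17 RPKM) in the Procr- library. It was 14.0-fold higher [5.17 to 53.0] in the Procr- library, and in that library it lay above Aqp7 and Aqp11. Aqp2 had 1 read in each library, and Mip, Aqp6 and Aqp12 were not listed. The immune list, which holds myeloid markers, had 6 of 9 genes at least 2-fold higher in the Procr+ library and none lower. Its summed level was 75.0 RPKM in the Procr+ and 30.9 RPKM in the Procr- library, and its part in the Aqp9 reads was not tested.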
